A study of Homo sapiens with 4 samples.

Results

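Cohesin and condensin are ring-shaped protein machines of the chromosome, and the genes examined here encode 10 of their subunits. They are the cohesin subunits SMC1A, SMC3, RAD21, STAG1 and STAG2, and the condensin subunits SMC2, SMC4, NCAPD2, NCAPG and NCAPH. The genes were chosen by name, as subunits of these complexes, but with earlier results of these data known. Every bead array probe that the platform annotation gives to 1 of these symbols was taken. That gave 17 probes, 10 for cohesin and 7 for condensin, of the 47217 on the array, which name 18348 genes in all.

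The RNA came from H9, an established cell line derived from a human embryo and pluripotent, in a series on low dose irradiation and gene targeting. A pair of samples was taken before gamma irradiation (0 h, n = 2) and another pair 24 h after it (n = 2), and both groups are the same line with no genetic change named. The labels give a serum replacement medium with basic fibroblast growth factor, but no radiation dose, and do not say whether feeder cells were used or whether the replicates were separate cultures. The p-values therefore reflect no more than the spread among these samples, and that spread could be technical. No unirradiated sample at 24 h was analysed here, so irradiation and a day in culture cannot be told apart. All 4 arrays lay on 1 slide in positions that differed between the groups, and position and group cannot be told apart either.

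Cohesin holds sister chromatids together from replication to anaphase and also extrudes loops of chromatin in interphase. Its ring is built from the ATPases SMC1A and SMC3, closed by the kleisin RAD21, and carries 1 of the alternative subunits STAG1 or STAG2. In cells with broken DNA, cohesin gathers at breaks and helps repair from the sister chromatid. Condensin I compacts chromosomes in mitosis. Its ATPases SMC2 and SMC4 are shared with condensin II, and NCAPH is its kleisin, with NCAPD2 and NCAPG as the HEAT-repeat subunits.

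On each array, 19705 to 20443 probes were detected, meaning a detection p-value under 0.05 against the array's negative controls. Probes below that value on at least 2 of the 4 arrays were tested, 20361 in all. The deposited signals were dimmer at 24 h, with array medians of 158.4 and 175.2 before irradiation against 143.8 and 134.7 afterwards. Across the tested probes the median log2 change of the deposited signals was -0.48, and it was -0.01 after background correction and quantile normalization, the scale of all log2 values below unless stated. A change is the mean at 24 h minus the mean at 0 h, with the standard error (SE) from limma. Array number limits the precision here, and 2 arrays against 2 cannot give a two-sided exact permutation p below 0.333.

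A day after irradiation the cohesin subunits STAG1 and STAG2 read 2.54-fold and 1.70-fold lower on their best separated probes. The condensin kleisin NCAPH was not detected at 24 h and was given a bound of 1.34-fold lower, which carries no sampling error. The condensin ATPase SMC4 and 1 of the 2 probes of RAD21 read 1.74-fold and 1.72-fold higher. None of these differences passed the test across all probes. Of the 17 subunit probes, 14 were tested and they covered all 10 genes. Limma called 0 of these 14 at an adjusted p of 0.05, and the same fit called 0% of the 20361 probes, with a smallest adjusted p of 0.0801. At an unadjusted p under 0.05 there were 9 of the 14 subunit probes, against 25.7% of all tested probes. Of these, 3 were higher at 24 h, against 12.5% of all, and 6 were lower, against 13.2%. The groups did not overlap for 11 of the 14, against 57.9% of all tested probes. The 24 h arrays were above in 3 of them and below in 8, against 28.5% and 29.3% of all. SMC1A and NCAPH passed the detection filter only through their 0 h arrays, so a lower value at 24 h was built into their selection. The genes were also chosen with earlier results of these data known. These counts are therefore a description and no test of the complexes.

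By complex, the 8 tested cohesin probes had a median change of -0.625, with 7 below 0 and 1 above. The 6 tested condensin probes had a median of 0.07, with 2 below 0 and 4 above, and all tested probes had a median of -0.01. The condensin median changed sign and size with single arrays, from -0.03 without 0 h replicate 2 and -0.02 without 24 h replicate 2 to 0.17 without 0 h replicate 1 and 0.15 without 24 h replicate 1. It was 0.21 with detection on all 4 arrays or a detection p under 0.01, and 0.02 without background correction. A direction for condensin is therefore not settled. The difference between the complexes was not tested.

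**Figure D1:**
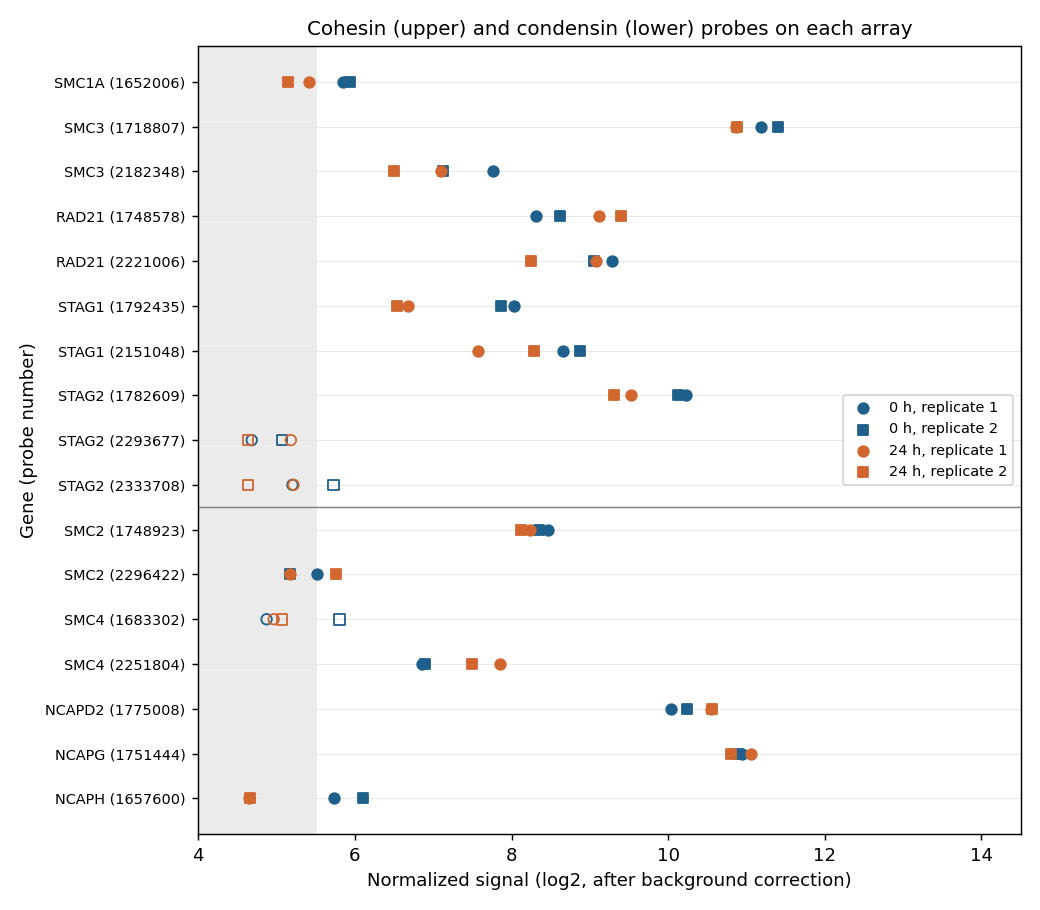
Normalized log2 signal (x axis) of the 17 cohesin and condensin probes (y axis) on each of the 4 arrays, with 0 h in blue, 24 h in orange, replicate 1 as circles and replicate 2 as squares. Open symbols mark the 3 probes that were not tested, and the grey band reaches up to the highest of the 4 arrays' lowest detected signals, 5.51. Both STAG1 probes and the tested STAG2 probe lie lower on both 24 h arrays, and the filled SMC4 points and NCAPD2 lie higher.

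Promoter windows from RefSeq (GRCh38.p14) show what lies at the starts of some of these genes. They are printed for STAG1, lowest among the cohesin genes, and for NCAPH, lower but undetected at 24 h and so without a settled rank. They are also printed for SMC4 and NCAPD2, which were higher on both 24 h arrays, and for NCAPG, which was near 0. Each runs 5′ to 3′ from 250 bases before a gene start to 50 bases from it on, and capitals mark matches, on either strand, to the motif TTTGAA, to the motif CCAAT and to the letters of an E2F site, TTTCCCGC as well as TTTGGCGC. A match on the opposite strand is marked as its reverse complement.
STAG1, chr3:136752329-136752628, - strand: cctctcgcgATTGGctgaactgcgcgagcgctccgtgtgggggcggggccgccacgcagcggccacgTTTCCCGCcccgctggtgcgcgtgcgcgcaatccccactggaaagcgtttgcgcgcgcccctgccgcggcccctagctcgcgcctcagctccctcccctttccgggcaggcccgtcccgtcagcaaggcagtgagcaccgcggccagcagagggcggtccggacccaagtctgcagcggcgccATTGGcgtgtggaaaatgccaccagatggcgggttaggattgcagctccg
NCAPH, chr2:96335516-96335815, + strand: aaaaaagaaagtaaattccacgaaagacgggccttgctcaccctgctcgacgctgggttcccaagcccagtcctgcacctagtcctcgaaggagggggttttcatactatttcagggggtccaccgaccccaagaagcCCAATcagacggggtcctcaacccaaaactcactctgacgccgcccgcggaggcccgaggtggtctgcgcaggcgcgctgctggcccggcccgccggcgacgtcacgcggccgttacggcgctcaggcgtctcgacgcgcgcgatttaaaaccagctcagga
SMC4, chr3:160399400-160399699, + strand: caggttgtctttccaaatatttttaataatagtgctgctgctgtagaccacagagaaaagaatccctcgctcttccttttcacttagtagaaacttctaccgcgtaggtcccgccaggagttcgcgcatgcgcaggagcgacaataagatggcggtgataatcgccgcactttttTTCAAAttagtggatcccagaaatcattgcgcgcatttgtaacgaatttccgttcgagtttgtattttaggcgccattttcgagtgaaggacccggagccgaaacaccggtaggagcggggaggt
NCAPD2, chr12:6493852-6494151, + strand: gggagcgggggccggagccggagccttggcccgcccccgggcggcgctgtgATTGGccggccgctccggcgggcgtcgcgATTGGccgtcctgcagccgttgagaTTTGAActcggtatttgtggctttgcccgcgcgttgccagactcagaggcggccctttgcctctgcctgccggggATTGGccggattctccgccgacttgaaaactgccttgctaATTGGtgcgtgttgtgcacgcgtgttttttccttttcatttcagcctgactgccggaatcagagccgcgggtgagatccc
NCAPG, chr4:17810729-17811028, + strand: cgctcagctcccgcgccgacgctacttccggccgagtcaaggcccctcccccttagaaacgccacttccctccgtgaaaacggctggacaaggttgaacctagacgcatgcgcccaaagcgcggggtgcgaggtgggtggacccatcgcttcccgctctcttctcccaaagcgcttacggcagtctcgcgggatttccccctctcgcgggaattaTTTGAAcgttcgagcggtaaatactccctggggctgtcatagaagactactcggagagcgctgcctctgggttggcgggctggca

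TTTGAA is the core of the cell cycle genes homology region, through which the DREAM and MuvB complexes act on late cell cycle genes. CCAAT is the box bound by NF-Y, and the other pair of motifs are forms of the E2F site. No match overlapped another in the printed windows. From the promoter table, 14 windows of 9 of the 10 genes were scanned, since some genes have several starts. RAD21 is named only: no window of it was scanned, and the counts leave it out. TTTGAA was found in 5 of the 14 windows, those of SMC2, SMC4, NCAPD2, NCAPG and SMC3, against 15.2% of the 35116 windows of the table. It began 35 bases before the start in NCAPG, 75 before it in SMC4 and 145 before it in NCAPD2. SMC4 has a second window with no match.

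CCAAT was found in 5 of the 14 windows, against 34.6% of all windows, and 4 copies stood in the window of NCAPD2. TTTCCCGC or TTTGGCGC was found in 3 of the 14, those of STAG1, SMC1A and STAG2, against 2.27%. STAG1 thus carried CCAAT and E2F letters but no TTTGAA, and NCAPH carried 1 CCAAT. These matches describe letters, and no binding was measured.

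STAG1, a HEAT-repeat subunit that stabilises cohesin on chromatin and is prominent at telomeres, had the lowest changes among the cohesin genes. Probe ILMN_1792435 read 8.04 and 7.87 at 0 h and 6.68 and 6.54 at 24 h. Both 24 h arrays were below both 0 h arrays by more than 1 log2 unit, a change of -1.34 ± 0.135 SE or 2.54-fold lower (limma adjusted p = 0.0801). Only 0.201% of all tested probes had a lower change with this processing. Without background correction the change of this probe was -0.70, so its size depends on how background is treated. On the deposited linear scale this probe gave 420.3 and 450.0 before irradiation against 204.7 and 174.9 afterwards.

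The other STAG1 probe, ILMN_2151048, read 8.66 and 8.88 at 0 h and 7.58 and 8.29 at 24 h. Its 24 h arrays were again both lower but lay far apart, and the change was -0.84 ± 0.27 (limma adjusted p = 0.159). Without 24 h replicate 1 it was -0.48. Both STAG1 probes thus stood lower, and their changes differed by 0.504 ± 0.469 SE, which is about the spread between arrays. That SE comes from the within-array differences between the probes and not from limma.

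STAG2, the alternative subunit that is more abundant in most somatic cells and recurrently mutated in cancer, has 3 probes. Probe ILMN_1782609 read 10.23 and 10.12 at 0 h and 9.52 and 9.305 at 24 h. The groups did not overlap, and the change was -0.76 ± 0.14, or 1.70-fold lower (limma adjusted p = 0.0847). ILMN_2293677 was detected on 0 of 4 arrays and ILMN_2333708 on 1, at 0 h, and neither was tested. The values for STAG2 therefore rest on 1 probe.

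SMC3, the ATPase whose acetylation locks cohesin onto sister chromatids, was read by a bright and a dim probe. The bright one, ILMN_1718807, stood at 11.19 and 11.41 at 0 h and at 10.87 and 10.88 at 24 h. Both 24 h arrays were lower and close to each other, with a change of -0.425 ± 0.13 (limma adjusted p = 0.151). The dim one, ILMN_2182348, stood at 7.76 and 7.12 at 0 h and at 7.10 and 6.50 at 24 h. Here the higher 24 h array nearly reached the lower 0 h array, and the change of -0.64 ± 0.315 (limma adjusted p = 0.288) is about 2 SE from 0. Its size moved with each array, to -0.32 without 0 h replicate 1, -0.96 without 0 h replicate 2, -0.94 without 24 h replicate 1 and -0.34 without 24 h replicate 2.

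SMC1A, the partner ATPase of SMC3, was measured near background by 1 probe. It read 5.85 and 5.94 at 0 h and 5.42 and 5.15 at 24 h, where it was not well above background. The change was -0.61 ± 0.15 (limma adjusted p = 0.108). The bound, which sets the 24 h value no lower than the lowest detected signal, was 1.33-fold lower on this scale. It carries no sampling error and is no lower limit under other processing. On the deposited signals SMC1A differed from the median of all tested probes by -0.01. Its normalized difference shrank to -0.18 without background correction and to -0.33 when the arrays were scaled to their 75th percentile.

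RAD21, the kleisin that separase cuts at anaphase, gave opposite values from its 2 probes. ILMN_1748578 read 8.32 and 8.62 at 0 h and 9.11 and 9.40 at 24 h, with both 24 h arrays higher. Its change was 0.785 ± 0.18, or 1.72-fold higher (limma adjusted p = 0.103), and 3.44% of all tested probes had a higher change. The deposited signals of this probe, 487.7 and 674.9 at 0 h against 576.9 and 540.6 at 24 h, overlapped. Relative to the median of all tested probes their log2 change was 0.44. ILMN_2221006 read 9.29 and 9.05 at 0 h and 9.08 and 8.24 at 24 h, so the groups overlapped. Its change was -0.51 ± 0.31 (limma adjusted p = 0.377).

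The value of the second RAD21 probe rested on 24 h replicate 2, without which it was -0.09, and it was -0.93 without 24 h replicate 1. Within each array the first probe minus the second came to -0.97 and -0.43 for the 0 h arrays, and to 0.03 and 1.155 for the 24 h arrays. That difference moved by 1.29 ± 0.62, with the SE taken from these differences and not from limma. The mean of both probes changed by 0.14 (limma adjusted p = 0.547). The direction of RAD21 between the time points is not settled by these probes.

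**Figure D2:**
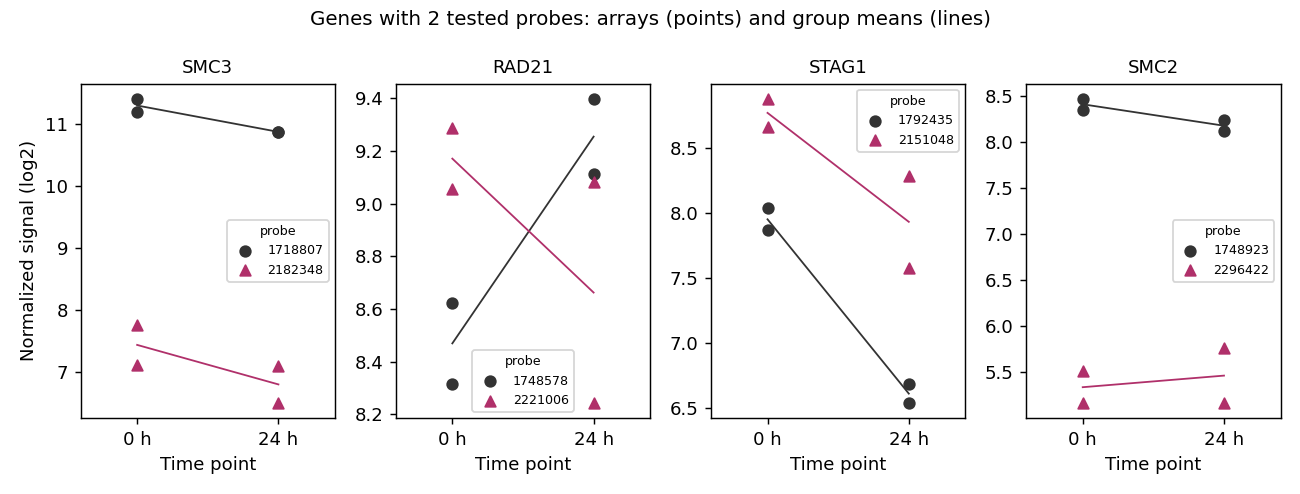
Normalized log2 signal (y axis, scaled to each gene) at 0 h and 24 h (x axis) for the 4 genes with 2 tested probes; points are arrays, lines join group means, and each probe has its own colour and symbol. The probes of SMC3 and of STAG1 both slope down, while those of RAD21 cross, from 8.47 to 9.255 for one and from 9.17 to 8.66 for the other.

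Among the condensin genes, NCAPH had the lowest measured value. The kleisin of condensin I read 5.73 and 6.10 at 0 h and 4.64 and 4.66 at 24 h. It was detected on both 0 h arrays, and at 24 h its detection p-values were 0.742 and 0.717. The change was -1.26 ± 0.17 (limma adjusted p = 0.0801) and the bound was 1.34-fold lower. That bound carries no sampling error and is no lower limit under other processing. On the deposited signals the log2 change of NCAPH relative to the median of all tested probes was -0.31. The probe passed the detection filter through its 0 h arrays, and with no level well above background at 24 h the change has no settled size or rank among the probes. Without background correction the difference was -0.47, so its size depends on how background is treated.

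SMC4, an ATPase of condensin, stood on the other side. ILMN_2251804 read 6.86 and 6.895 at 0 h and 7.86 and 7.50 at 24 h, with no overlap. The change was 0.80 ± 0.165, or 1.74-fold higher (limma adjusted p = 0.0938), and it was 0.42 without background correction. The deposited signals of this probe, 251.1 and 291.5 at 0 h against 312.9 and 232.8 at 24 h, overlapped, and relative to the median of all probes their log2 change was 0.47. The other SMC4 probe, ILMN_1683302, was detected on 1 of 4 arrays and was not tested.

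NCAPD2 read 10.04 and 10.245 at 0 h and 10.54 and 10.55 at 24 h. Both 24 h arrays were above both 0 h arrays, by a change of 0.41 ± 0.13 (limma adjusted p = 0.157). When the arrays were scaled to their 75th percentile instead of quantile normalized, it was 0.26. The deposited signals of NCAPD2 overlapped, and relative to the median of all tested probes their log2 change was 0.13. NCAPG, the other HEAT-repeat subunit, read 10.95 and 10.89 at 0 h and 11.05 and 10.80 at 24 h. Its groups overlapped, and the change was 0.01 ± 0.14 with a 95% interval of -0.37 to 0.39 (limma adjusted p = 0.974). With scaling to the 75th percentile the change of NCAPG was -0.13.

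SMC2, the partner of SMC4, read 8.47 and 8.35 at 0 h and 8.24 and 8.12 at 24 h on its brighter probe, ILMN_1748923. The 24 h arrays were both slightly lower, with a change of -0.23 ± 0.125 and a 95% interval of -0.57 to 0.10 (limma adjusted p = 0.321). Its dim probe, ILMN_2296422, was detected on 1 array of each group, and its change of 0.13 ± 0.26 lay within the spread between arrays (limma adjusted p = 0.801). Subunits that work in 1 condensin I complex thus lay on both sides of 0, with SMC4 and NCAPD2 higher on both 24 h arrays, NCAPG and SMC2 within 2 SE of 0, and NCAPH given only by its bound. No difference among them was tested.

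**Figure D3:**
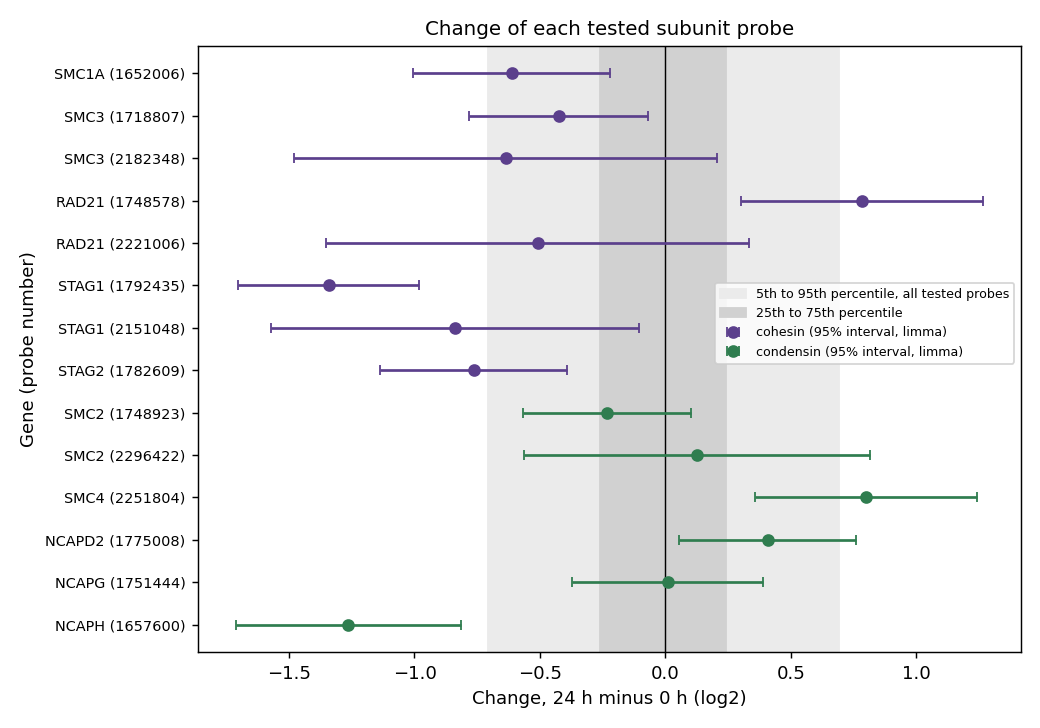
Change from 0 h to 24 h (log2, x axis) of the 14 tested cohesin (purple) and condensin (green) probes, with 95% intervals from limma; pale grey spans the 5th to 95th percentile of all 20361 tested probes, -0.71 to 0.69, and darker grey the 25th to 75th. Both STAG1 probes and STAG2 lie below the 5th percentile, as does the measured value of NCAPH, which has only a bound at 24 h, and RAD21 (ILMN_1748578) and SMC4 lie above the 95th.

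SMC1A, both SMC2 probes, the dim SMC3 probe, RAD21 ILMN_2221006 and NCAPG were called in none of the settings tried, and the other 8 probes were called in some. With a prior that follows the signal level and resists outliers, limma called 8 of the 14 probes, against 14.9% of all tested probes. Those 8 were both STAG1 probes, STAG2, the bright SMC3 probe and NCAPH, lower at 24 h, and RAD21 ILMN_1748578, SMC4 and NCAPD2, higher. Since NCAPH was tested only through its 0 h arrays, its calls in this paragraph are a description and support nothing. The same 8 were called without background correction, against 12.4%. With detection required on all 4 arrays, STAG1 ILMN_1792435, STAG2 and SMC4 were called among 11 probes, against 7.65%. STAG1 ILMN_1792435 and STAG2 were also called among 11 probes at a detection p under 0.01, against 6.50%. With 1 probe per gene, 1 of the 10 genes, NCAPH, was called (limma adjusted p = 0.0465), against 2.28% of 11030 genes. With the mean of each gene's probes, STAG1 (limma adjusted p = 0.0446) and NCAPH (0.0437) were called, against 3.05%. Leaving out any single array left 0 calls.

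**Figure D4:**
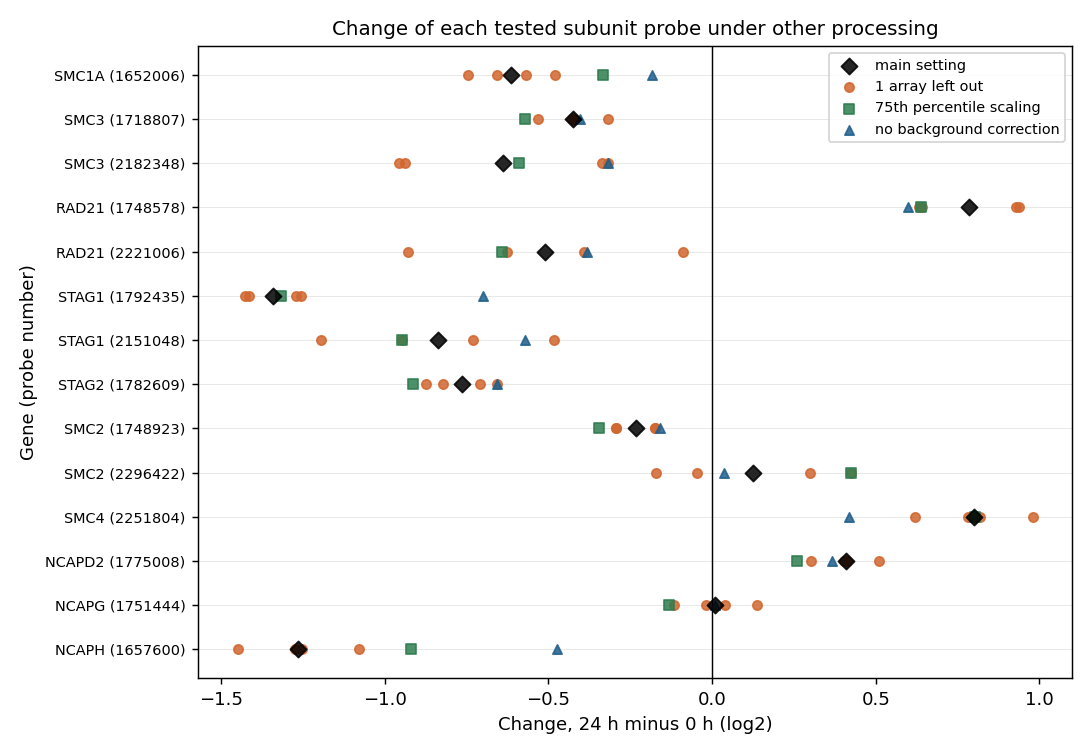
Change from 0 h to 24 h (log2, x axis) of the 14 tested subunit probes with the main processing (black diamonds), with 1 array left out (orange circles), with scaling to the 75th percentile (green squares) and without background correction (blue triangles). All points of STAG1, STAG2, SMC3 and NCAPH lie below 0 and all of SMC4 and NCAPD2 above it, while NCAPG lies on both sides.

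The partners that load, release, protect and cut cohesin, condensin II, the SMC5/6 complex and other chromosome structure genes formed a list of 41 genes. Probes were given for 37 of them, and 39 of their 51 probes were tested. Limma called 0 of the 39. At an unadjusted p under 0.05, 4 were higher, against 12.5% of all tested probes, and 7 lower, against 13.2%, so these counts were near the background. The groups did not overlap for 14 probes that were higher and 17 that were lower, against 28.5% and 29.3% of all tested probes. The median change was -0.12, against -0.01 over all tested probes.

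NIPBL, which loads cohesin onto DNA together with MAU2, stood lowest in this list with the main processing. Probe ILMN_1690136 read 7.19 and 7.06 at 0 h and 6.11 and 5.99 at 24 h, a change of -1.075 ± 0.13 (limma adjusted p = 0.0801). Both 24 h arrays were about 1 log2 unit below the 0 h arrays. Without background correction this NIPBL probe was at -0.44, above a PDS5B probe at -0.57, so its size and rank depend on the processing. Another NIPBL probe, ILMN_2264625, was at -0.28 ± 0.13, and its remaining probe was not detected on any array. PDS5B, which binds the ring with the release factor WAPL, read 8.555 and 8.20 at 0 h and 7.53 and 7.40 at 24 h, a change of -0.915 ± 0.17 (limma adjusted p = 0.0853). Its second probe was at -0.48 ± 0.16, and all 3 tested probes of release factors were below 0.

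Of the enzymes of the acetylation cycle, the acetyltransferase ESCO1 was at -0.26 ± 0.31 and the deacetylase HDAC8 at -0.27 ± 0.16, ESCO1 within its SE and HDAC8 with groups that did not overlap. HDAC8 was at -0.12 without 24 h replicate 1 and at -0.43 without 24 h replicate 2. ESCO1 was at -0.09 without 0 h replicate 1, at -0.42 without 0 h replicate 2, at -0.65 without 24 h replicate 1 and at 0.14 without 24 h replicate 2. TIPIN, a fork protection protein that aids cohesion, read 9.105 and 9.19 at 0 h and 8.46 and 8.44 at 24 h, a change of -0.69 ± 0.12 (limma adjusted p = 0.081). DSCC1, of the alternative clamp loader, was at -0.38 ± 0.19, but at -0.19 without 0 h replicate 1 and at -0.24 without 24 h replicate 2. Other fork genes stood higher, with CHTF18, of the same clamp loader, at 0.34 ± 0.12 (limma adjusted p = 0.182) and WDHD1, a replisome protein, at 0.34 ± 0.19, so that 3 of the 7 tested fork probes were above 0 and 4 below. The protectors were also on both sides. SGO2 (shugoshin 2) was at -0.35 ± 0.19 and CDCA5 (sororin) at -0.205 ± 0.13, while the probes of SGO1 (shugoshin 1) were at 0.20 ± 0.16 and 0.035 ± 0.195. SGO2 was at -0.56 without 24 h replicate 1 and at -0.14 without 24 h replicate 2, and CDCA5 at -0.12 without 0 h replicate 2.

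PTTG1 (securin), which restrains separase until anaphase, stood higher on both of its probes after normalization. On the deposited signals their log2 changes relative to the median of all tested probes were 0.38 for ILMN_2042771 and 0.02 for ILMN_1753196. With normalization ILMN_2042771 read 12.84 and 12.98 at 0 h and 13.315 and 13.48 at 24 h, a change of 0.49 ± 0.13 (limma adjusted p = 0.127), and ILMN_1753196 was at 0.245 ± 0.13, or 0.15 without 24 h replicate 1. In condensin II, NCAPG2 was at 0.445 ± 0.12 (limma adjusted p = 0.128), and its deposited signals changed by 0.16 relative to the median of all tested probes. NCAPH2 was at 0.31 ± 0.15 on its dimmer tested probe, or 0.18 without 24 h replicate 2. Its brighter probe was at 0.07 ± 0.12, within its SE of 0. Of the 4 tested condensin II probes, 3 were above 0. SMC6, an ATPase of the SMC5/6 complex that acts in recombination repair, was at -0.67 ± 0.16 (limma adjusted p = 0.106), and its partner NSMCE2, a SUMO ligase, at 0.38 ± 0.14.

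Of the remaining groups, the meiotic kleisin REC8 was at -0.24 ± 0.19 and -0.09 ± 0.11 on its 2 probes, the first of them at -0.12 without 0 h replicate 1, at -0.05 without 24 h replicate 1 and at -0.43 without 24 h replicate 2. CTCF, which stops loop extrusion by cohesin, was at -0.25 ± 0.15, but at -0.10 without 24 h replicate 1 and at -0.41 without 24 h replicate 2. The chromokinesin KIF4A, which works with condensin, was at -0.365 ± 0.12 (limma adjusted p = 0.166). The medians were -0.28 for loading, -0.48 for release, -0.27 for the acetylation cycle, 0.245 for cleavage and 0.19 for condensin II. The other groups lay nearer 0, at -0.08 for the fork genes, -0.085 for protection, -0.09 for meiotic cohesin, -0.03 for the SMC5/6 complex and -0.18 for other chromosome structure genes. Each rests on 2 to 7 tested probes, and no difference between groups was tested.

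**Figure D5:**
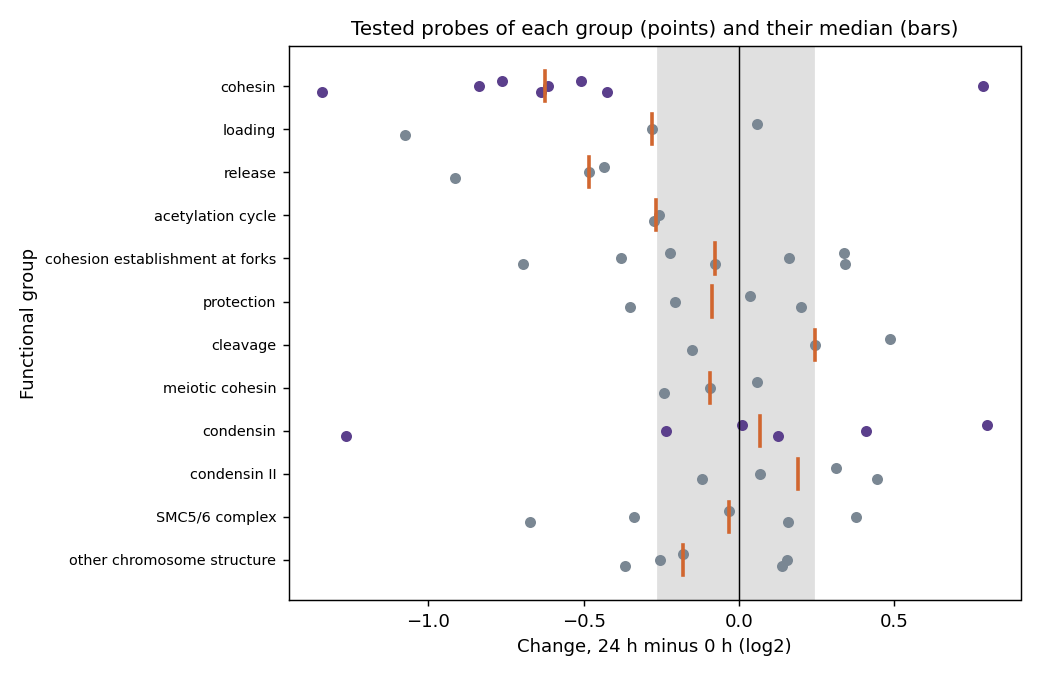
Change from 0 h to 24 h (log2, x axis) of every tested probe in the cohesin and condensin subunits (purple) and in each group of associated genes (grey), with the median of each group as an orange bar and the 25th to 75th percentile of all tested probes as a grey band. The cohesin median lies at -0.625 and the condensin median at 0.07.

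Lists of cell type markers and of cell cycle genes also differed between the time points. The summed normalized signal of 12 tested probes of fibroblast and mesenchymal markers came to 16100 and 16240 before irradiation against 28490 and 28150 afterwards, with 12 of 12 probes above 0. Those probes covered 8 of the list's 13 genes. COL3A1, LUM, DCN, PDGFRA and FAP were not tested, and of these COL3A1, LUM and PDGFRA were not detected on any array. The sum over 12 probes of 9 pluripotency genes, all of which were detected, came to 60460 and 60070 before against 49790 and 49450 afterwards, with 10 of 12 probes below 0. NANOG, at 0.31, and POU5F1, at 0.22, lay above 0 with no overlap. The sum over 27 probes of G2 and mitosis genes came to 54990 and 56140 before against 60150 and 61260 afterwards, with 18 of 27 probes above 0 and 9 below. The largest changes were in HMMR, at 0.83 and 0.28 on its probes, UBE2C, at -0.73 and 0.09, and KIF11, at -0.55 and -0.33. CCNB1 at -0.465 and CENPF at -0.38 also lay below 0. Over 24 probes of G1/S and S phase genes it came to 56650 and 57950 before against 48690 and 50740 afterwards, with 17 of 24 probes below 0 and 7 above. The part of these markers in the subunit values was not tested. In RNA from a whole culture, fewer cells of a type or phase and less RNA per cell cannot be told apart.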

How the data were processed

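Total RNA of H9 cells was hybridised to Illumina bead arrays, 2 before irradiation and 2 taken 24 h after it, grouped by the labelled time point. Per the file headers, the deposited table holds for each array the mean bead intensity of each probe and a detection p-value. The authors' processed table holds deposited log2 values, and the submitters' processing notes name limma, and its steps are not stated in the sources. Its columns correlated with the values computed here at 0.99998, with medians of 5.35 to 5.36 and differences of up to 0.0563, so they are log2 values without centring of genes. The rule that chose its probes stays unknown.

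Intensities were processed with neqc of limma 3.58.1 (R 4.3.3), with background fitted from the detection p-values, quantile normalization and an offset of 16. Each probe with a detection p under 0.05 on at least 2 arrays was fitted with lmFit and eBayes without a block, and p-values were adjusted over the 20361 probes (Benjamini-Hochberg). The fit was tested on simulated data. Probes were named from the platform annotation. A probe detected on neither array in a group was given a bound, its bright group's mean over the dim group's mean of the higher of each array's lowest detected signal and its own, which carries no sampling error. All probes of the 10 genes are described. Of the associated genes, the 2 probes with the largest absolute change in each group are named with their values. Members and lists were chosen with earlier results of these data known. The alternatives were 75th percentile scaling, no background correction, 3 other filters on dim probes, another prior, 1 probe or the mean of probes per gene, the authors' table, a replicate block and each array left out.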

Additional observations from a re-analysis of the deposited data

How the results depend on the processing

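The main processing called 0 probes higher and 0 lower. The counts called higher and lower were 1257 and 1260 without background correction, 658 and 603 with detection on all 4 arrays, 552 and 539 with a detection p under 0.01, 1503 and 1524 with a trended, robust prior, 149 and 102 with 1 probe per gene, and 191 and 145 with the mean of a gene's probes. The subunit calls in these settings were 3 higher and 5 lower, 1 and 2, 0 and 2, 3 and 5, 0 and 1, and 0 and 2. The cause was not tested. Stricter filters and 1 probe per gene left fewer tests, 11030 to 16781, and the unadjusted p-values also moved. For STAG1 ILMN_1792435 the unadjusted limma p was 0.000351 with the main processing and 9.29e-05 with detection on all 4 arrays. No call arose with 75th percentile scaling, without a filter or in the authors' table. The median change of the cohesin probes was -0.392 without background correction and -0.809 to -0.454 with 1 array left out. Leaving out 1 array gave changes of -0.171 to 0.424 for the dim SMC2 probe, -0.116 to 0.137 for NCAPG and -0.654 to 0.138 for ESCO1. NCAPG was at -0.132 with 75th percentile scaling. The mean of both probes was 0.138 for RAD21 and -0.053 for SMC2, the sign of 1 of each gene's probes. With the replicate number as a block limma called 0 probes, with 5945 at an unadjusted p under 0.05 against 5235 without it. Deviations of same-numbered arrays correlated at 0.169, and the labels give the arrays a shared number only. A group with 1 array left was assumed to vary like the other group. Low signal limits SMC1A, NCAPH and the dim SMC2 probe.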
